A study of Mus musculus with 17 samples.

Results

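The genes described here are named for enzymes that add or remove methyl groups on histone lysines. Some, such as Setd3, Setd6, Kdm8 and Kmt2e, have another or little activity, as given below. They are the 44 of 36172 genes in the table whose names begin with Kdm and a digit, Kmt2, Setd and a digit, Suv39h, Suv420h, Ehmt or Whsc1, or are Ezh1, Ezh2 or Nsd1. By name, 25 are writers (methyltransferases, most with a catalytic SET domain) and 19 carry a Kdm name and are called erasers (demethylases) here. Kdm6bos, counted among the erasers for its name, is an antisense gene inside Kdm6b and encodes no demethylase. The rule reads gene names and not measured values.

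RPAP1 binds RNA polymerase II (Pol II), and the study knocked it down in primary fibroblasts of mouse embryos. The tested chromatin (shRPAP1) came from fibroblasts of the C57Bl/6 strain infected with a lentivirus carrying hairpin #5 against Rpap1. Chromatin of the control (SCR) came from fibroblasts of the same strain infected with a lentivirus carrying a non-targeting hairpin. Both were kept in puromycin, harvested at day 3 after infection, and made from 3 lines pooled, with the embryos' age and sex not given in the labels. Each chromatin was immunoprecipitated once with an antibody to total Pol II and once with an antibody to Pol II carrying phosphate on serine 5 of the C-terminal repeats (Ser5P), the form found on polymerase that has just started a gene. Free-text descriptions of both shRPAP1 samples name the SCR control. Their titles, treatments and hairpins give the knockdown instead, and the groups were taken from the titles. With 1 library of each kind there is no replicate and no test, so "lower" and "higher" compare these libraries only.

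Methyl groups on histone lysines mark the state of chromatin without changing its charge. Methylation of H3K4 marks active promoters and enhancers, that of H3K36 marks transcribed gene bodies, and that of H3K9, H3K27 or H4K20 accompanies silent or compacted chromatin. Writers take the methyl group from S-adenosylmethionine, and erasers remove it with either a flavin cofactor (the Kdm1 enzymes) or iron and 2-oxoglutarate (the JmjC-domain enzymes). Most of these genes are expressed in most tissues, fibroblasts included.

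Promoter sequences of 4 genes are shown because the Pol II values turn on them. Kdm5b held the highest Ser5P promoter signal of the 44 genes in SCR, and the Kdm5c promoter was among those with the largest Ser5P deficit in shRPAP1. Ezh2 and Ezh1, the H3K27 writers, had gene body signals that differed by less than their counting intervals. Each run goes from 250 bases before a RefSeq transcript start to 50 after it (build GRCm38.p6), and capitals mark the motif matches listed after the runs. The Kdm5b run is at chr1:134559928-134560227 (plus strand), the Kdm5c run at chrX:152232977-152233276 (plus strand), the Ezh2 run at chr6:47594981-47595280 (minus strand) and the Ezh1 run at chr11:101226414-101226713 (minus strand).
Kdm5b: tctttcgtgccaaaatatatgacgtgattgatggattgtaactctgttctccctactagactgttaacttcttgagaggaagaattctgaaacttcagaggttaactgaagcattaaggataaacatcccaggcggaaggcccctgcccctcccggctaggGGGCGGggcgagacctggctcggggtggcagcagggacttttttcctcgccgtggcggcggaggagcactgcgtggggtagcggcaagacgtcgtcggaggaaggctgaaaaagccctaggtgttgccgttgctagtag
Kdm5c: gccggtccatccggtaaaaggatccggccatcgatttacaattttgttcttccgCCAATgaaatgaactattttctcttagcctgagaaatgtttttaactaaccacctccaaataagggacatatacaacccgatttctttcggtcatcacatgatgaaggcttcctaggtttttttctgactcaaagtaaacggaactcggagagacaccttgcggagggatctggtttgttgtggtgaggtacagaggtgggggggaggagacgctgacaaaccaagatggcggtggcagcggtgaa
Ezh2: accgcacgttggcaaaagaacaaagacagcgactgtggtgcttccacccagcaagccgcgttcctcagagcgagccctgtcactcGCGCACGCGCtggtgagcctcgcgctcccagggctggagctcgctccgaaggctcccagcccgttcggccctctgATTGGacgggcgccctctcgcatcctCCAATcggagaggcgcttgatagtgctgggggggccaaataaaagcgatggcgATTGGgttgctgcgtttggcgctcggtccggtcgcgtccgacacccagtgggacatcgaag
Ezh1: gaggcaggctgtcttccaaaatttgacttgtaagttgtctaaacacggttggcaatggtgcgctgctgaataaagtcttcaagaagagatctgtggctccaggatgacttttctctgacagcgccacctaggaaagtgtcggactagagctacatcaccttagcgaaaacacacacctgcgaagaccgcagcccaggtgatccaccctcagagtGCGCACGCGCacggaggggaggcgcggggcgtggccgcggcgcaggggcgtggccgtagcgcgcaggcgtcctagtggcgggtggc

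The motifs were searched on both strands as exact letters. They were the GC box GGGCGG, the CCAAT box CCAAT, the TATA box TATAAA, the ETS core CCGGAAG and the NRF1 core (GCGCA, any base, then GCGC). The E box CACGTG and the cAMP response element were searched too and had no match in these runs. Kdm5b held 1 GC box, Kdm5c held 1 CCAAT box, Ezh2 held 3 CCAAT boxes and 1 NRF1 core, and Ezh1 held 1 NRF1 core. RefSeq gave promoters for 32 of the 44 genes, with 44 sequences in all. Of these 90.9% had a CpG ratio (observed over expected) above 0.6, against 35.8% of all 32851 promoters of this length. The GC box was in 68.2% of the writer and eraser promoters, in 35.7% of all promoters and in 72.3% of the 11756 promoters with a CpG ratio above 0.6. The NRF1 core was in 20.5%, 4.60% and 11.8% of the same sets. TATAAA was in 2.27% of the writer and eraser promoters, against 13.6% of all and 5.99% of the CpG-rich set. A match is a run of letters and was not shown to be a binding site.

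Values are base coverage as deposited, on a per-length scale for promoters and for gene bodies. A promoter read is worth 28.8, and the lowest promoter value, 0.72, means no coverage. Promoter reads over all genes came to 71277 in shRPAP1 and 129638 in SCR for total Pol II. For Ser5P they came to 156206 in shRPAP1 and 290756 in SCR. The opposite held for 1760 olfactory and vomeronasal receptor genes, which are silent in fibroblasts and served as background. Their mean gene body signal was 12.5 in shRPAP1 and 7.08 in SCR for total Pol II, and 10.0 in shRPAP1 and 5.75 in SCR for Ser5P. Setting background equal would lower every ratio, moving the median log2 ratio of all measured genes by 0.80 at promoters and 0.81 over bodies with total Pol II, and by 0.59 and 0.79 with Ser5P. Less polymerase on chromatin, a smaller yield of the immunoprecipitation and an unequal scaling of the libraries cannot be told apart here. All 10 fibroblast markers (Col1a1, Thy1 and others) were measured over gene bodies with Ser5P and 9 with total Pol II, and their summed total Pol II signal was 2041 in shRPAP1 and 5394 in SCR. None of the embryonic stem cell, epithelial or endothelial markers was measured. Of 5 blood markers 1 was measured with each antibody, the 5 summing to 180.4 in shRPAP1 and 313 in SCR for total Pol II and to 214 in shRPAP1 and 547 in SCR for Ser5P. Of 4 neural markers 0 were measured with total Pol II and 1 with Ser5P. Rpap1 itself had a total Pol II body signal of 14.3 in each condition, which does not check depletion, since a hairpin acts on the transcript.

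A gene counted as measured when the mean of its 2 libraries exceeded the background threshold, the mean of the 95th percentiles of the background genes. Ratios are log2 of shRPAP1 over SCR after adding 0.72 (promoters) or 0.33 (bodies), and a gene counted as lower or higher past 1.5-fold. The interval beside a single gene is the exact 95% Clopper-Pearson interval on its read ratio, which covers counting error and not the spread between cultures.

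Over gene bodies most writers and erasers carried less Pol II in the shRPAP1 libraries, by about as much as other genes. With total Pol II 34 of the 44 genes were measured. Of these 17 were lower and 0 higher, against 50.5% of 10508 measured genes lower and 6.55% higher. The median of their log2 ratios was -0.59, and that of all measured genes was also -0.59. With Ser5P 38 were measured, of which 27 were lower and 0 higher, against 62.5% of 14060 measured genes lower and 7.75% higher. The median of these was -0.78, and that of all measured genes was -0.75. Past 2-fold, 3 genes were lower with total Pol II, against 20.8% of measured genes, and 9 with Ser5P, against 30.6%. The 1.5-fold counts lay near the background shares. When the all-gene median was set to 0, the medians were 0.00087 with total Pol II and -0.03 with Ser5P.

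The 10 genes not measured over the body with total Pol II were Ezh1, Kdm1b, Kdm2b, Kdm4b, Kdm4d, Kdm5d, Kdm8, Setd4, Suv39h1 and Suv420h2. With Ser5P they were Kdm1b, Kdm2b, Kdm4b, Kdm4d, Kdm5d and Setd4. The mean of their 2 libraries did not pass the threshold, though the SCR library of Kdm4b, Kdm2b and Setd4 (34.4, 26.9 and 26.6 with Ser5P) was above its own background percentile (20.3). These genes are not counted, and their signals are plotted with the rest. For total Pol II Kdm4b held 15.9 in shRPAP1 and 18.4 in SCR, Kdm8 held 22.0 in shRPAP1 and 28.2 in SCR, and Setd4 held 13.9 in shRPAP1 and 19.3 in SCR. Suv39h1 held 16.5 in shRPAP1 and 17.9 in SCR, and Suv420h2 held 21.5 in shRPAP1 and 24.8 in SCR.

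**Figure D1:**
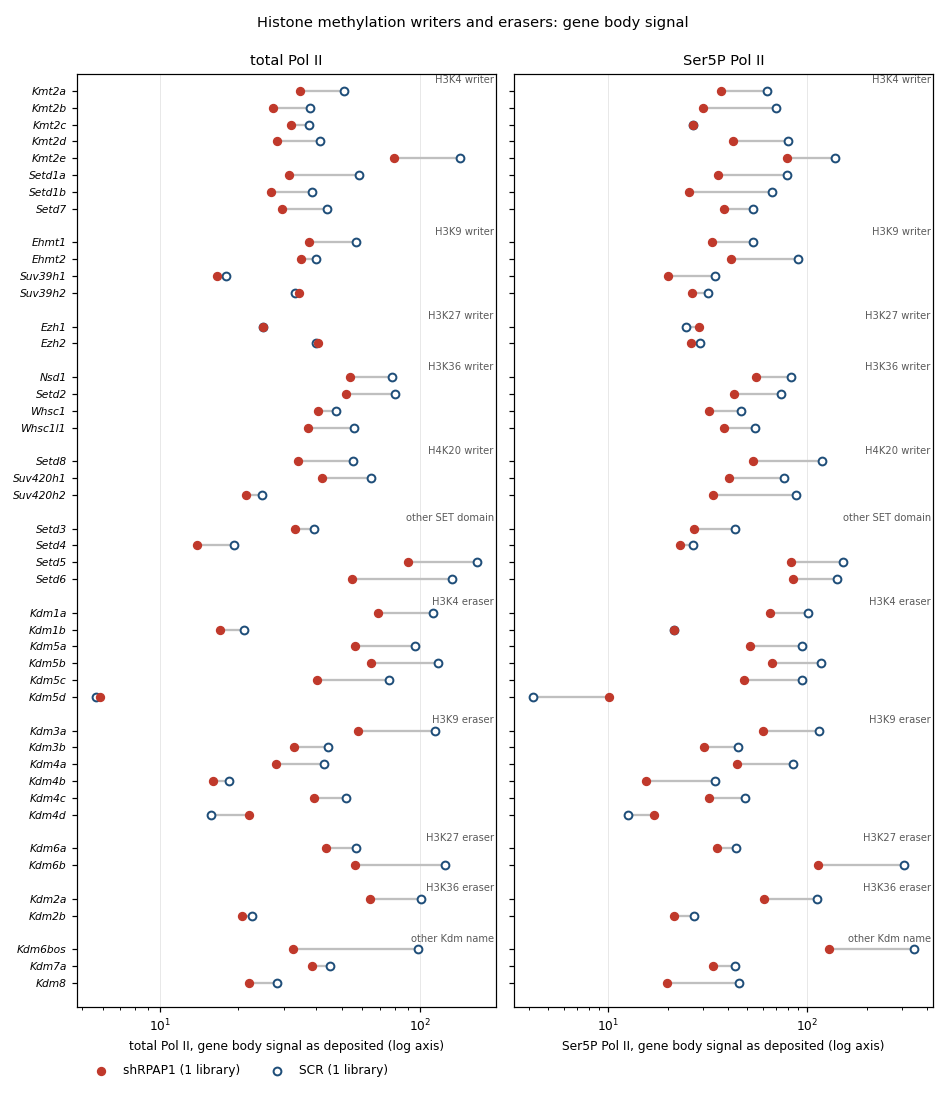
Gene body signal as deposited (log axis) of all 44 genes with total Pol II (left) and Ser5P (right); filled red points are the shRPAP1 library and open blue points the SCR library, 1 library each, grouped by the histone site of the enzyme. Setd5 is the highest in SCR for total Pol II (90.1 in shRPAP1, 166 in SCR), Kdm6bos and Kdm6b are the highest with Ser5P, and the points of Ezh1, Ezh2 and Kmt2c nearly coincide.

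Among the H3K4 writers, all 8 were measured over the body with both antibodies. With total Pol II 2 of 8 were lower, against 50.5% of all measured genes, with a median log2 ratio of -0.56. With Ser5P 6 of 8 were lower, against 62.5% of all measured genes, with a median of -0.85. Kmt2e, an MLL-family protein that reads H3K4 methylation and has little catalytic activity of its own, was the highest of the 8. Its total Pol II signal was 79.7 in shRPAP1 and 143 in SCR, a log2 ratio of -0.84 (-0.99 to -0.70). Its Ser5P signal was 79.5 in shRPAP1 and 138 in SCR, a log2 ratio of -0.79 (-0.94 to -0.64). With each antibody the shRPAP1 value of Kmt2e was below the SCR value by more than counting error. Its total Pol II interval lay below the all-gene median (-0.59), and its Ser5P interval held the all-gene median (-0.75).

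Kmt2c, which methylates H3K4 at enhancers, is the longest of the 44 genes (227061 bases) and differed little between the libraries as deposited. With total Pol II it held 31.9 in shRPAP1 and 37.3 in SCR, a log2 ratio of -0.22 (-0.37 to -0.08). With Ser5P it held 26.7 in shRPAP1 and 26.6 in SCR, a log2 ratio of 0.01 (-0.15 to 0.17). These intervals lay above the all-gene medians. Its shRPAP1 values were below the 95th background percentiles of those libraries (37.3 with total Pol II and 31.2 with Ser5P). With the mean background signal subtracted, the log2 ratios of Kmt2c were -0.63 and -0.31, against all-gene medians of -0.93 and -1.05. Its partner in enhancer methylation, Kmt2d, held 28.1 in shRPAP1 and 41.3 in SCR for total Pol II, and 42.4 in shRPAP1 and 80.1 in SCR with Ser5P. The Kmt2d log2 ratios were -0.55 (-0.90 to -0.22) and -0.91 (-1.18 to -0.65), so the intervals of Kmt2c and Kmt2d did not overlap with Ser5P and did with total Pol II.

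Setd1a and Setd1b, the catalytic subunits of the complexes that make most H3K4 trimethylation at promoters, were lower with Ser5P. Setd1b held 25.6 in shRPAP1 and 66.4 in SCR with Ser5P, a log2 ratio of -1.37 (-1.78 to -0.96). Its total Pol II signal was 26.7 in shRPAP1 and 38.6 in SCR, a log2 ratio of -0.52 (-0.97 to -0.08). Setd1a held 35.8 in shRPAP1 and 78.8 in SCR with Ser5P (log2 ratio -1.13) and 31.3 in shRPAP1 and 58.4 in SCR for total Pol II (-0.89). For both genes the Ser5P difference was the larger in size, though their total Pol II and Ser5P intervals overlapped.

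Kmt2a, the mixed-lineage leukaemia gene that maintains Hox expression, held 34.5 in shRPAP1 and 51.0 in SCR for total Pol II (log2 ratio -0.56). Its Ser5P signal was 36.9 in shRPAP1 and 62.7 in SCR (-0.76). Kmt2b, its closest relative, had log2 ratios of -0.46 and -1.21 with total Pol II and Ser5P, and Setd7, which monomethylates H3K4 and several other proteins, had -0.57 and -0.48. With Ser5P all 3 sat between the values of Kmt2c and Setd1b.

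The H3K4 erasers were measured in 4 of 6 cases, and those 4 were lower with both antibodies. Of all measured genes 50.5% were lower with total Pol II and 62.5% with Ser5P. The median log2 ratios of the 4 erasers were -0.80 with total Pol II and -0.84 with Ser5P. Kdm5a, Kdm5b and Kdm5c, JmjC enzymes that remove H3K4 trimethylation, had similar ratios. Kdm5b held 65.1 in shRPAP1 and 117 in SCR for total Pol II (-0.84, -1.01 to -0.69), and 66.9 in shRPAP1 and 118 in SCR with Ser5P (-0.81, -0.98 to -0.66). Kdm5c, an X-linked gene, held 40.1 in shRPAP1 and 76.1 in SCR for total Pol II (-0.92), and 48.3 in shRPAP1 and 94.7 in SCR with Ser5P (-0.97). Kdm5a held 56.4 in shRPAP1 and 95.6 in SCR for total Pol II (-0.76), and 51.9 in shRPAP1 and 94.4 in SCR with Ser5P (-0.86). The intervals of the 3 genes overlapped with each antibody, and with total Pol II each lay below the all-gene median.

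Kdm1a (LSD1), the flavin-dependent eraser of mono- and dimethylated H3K4, held 69.0 in shRPAP1 and 112 in SCR for total Pol II (-0.70) and 65.4 in shRPAP1 and 100.5 in SCR with Ser5P (-0.62). Its relative Kdm1b was near background, with 17.0 in shRPAP1 and 21.0 in SCR for total Pol II and 21.5 in shRPAP1 and 21.4 in SCR with Ser5P. Kdm5d, on the Y chromosome, was at background level, with total Pol II body signals of 5.84 in shRPAP1 and 5.68 in SCR and no promoter coverage in any library.

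The H3K27 enzymes spanned a wide range. Ezh2, the main catalytic subunit of Polycomb repressive complex 2 in dividing cells, held 40.7 in shRPAP1 and 39.7 in SCR with total Pol II, a log2 ratio of 0.04 (-0.21 to 0.28). With Ser5P Ezh2 held 26.1 in shRPAP1 and 29.1 in SCR, a log2 ratio of -0.15 (-0.46 to 0.15). Ezh1, the alternative catalytic subunit that prevails in non-dividing cells, held the same signal in both conditions with total Pol II (92 reads each). This signal was below the threshold and below the 95th background percentile of each library (37.3 in shRPAP1 and 25.9 in SCR). Both total Pol II values of Ezh2 were above these percentiles. The Ser5P signal of Ezh1 was 28.7 in shRPAP1 and 24.7 in SCR, a log2 ratio of 0.21 (-0.21 to 0.63). With Ser5P the shRPAP1 values of Ezh1 and Ezh2 were below the percentile of that library (31.2). Their SCR values were above that of the SCR library (20.3). The 4 intervals of Ezh1 and Ezh2 held 0 and lay above the all-gene medians. After the mean background signal was subtracted from each library, the log2 ratios of Ezh2 were -0.21 with total Pol II and -0.52 with Ser5P, and those of Ezh1 were -0.51 and -0.02.

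Kdm6b (JMJD3), an inducible JmjC eraser of H3K27 trimethylation, was at the other end. Its total Pol II body signal was 56.5 in shRPAP1 and 125 in SCR, a log2 ratio of -1.14 (-1.45 to -0.83). Its Ser5P body signal was 113 in shRPAP1 and 305 in SCR, a log2 ratio of -1.43 (-1.65 to -1.23). Both Kdm6b intervals lay below the all-gene medians. Kdm6bos, an antisense gene of 1188 bases at chr11:69401513-69402700, lies within Kdm6b on the opposite strand. ChIP reads carry no strand, so its values (129 in shRPAP1 and 343 in SCR with Ser5P, from about 12 and 32 reads) are partly the same reads as those of Kdm6b.

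Kdm6a (UTX), the X-linked counterpart of Kdm6b, differed less. It held 43.6 in shRPAP1 and 56.7 in SCR for total Pol II (-0.38, -0.54 to -0.22) and 35.5 in shRPAP1 and 44.0 in SCR with Ser5P (-0.31, -0.50 to -0.13). The intervals of Kdm6a and Kdm6b did not overlap with either antibody.

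**Figure D2:**
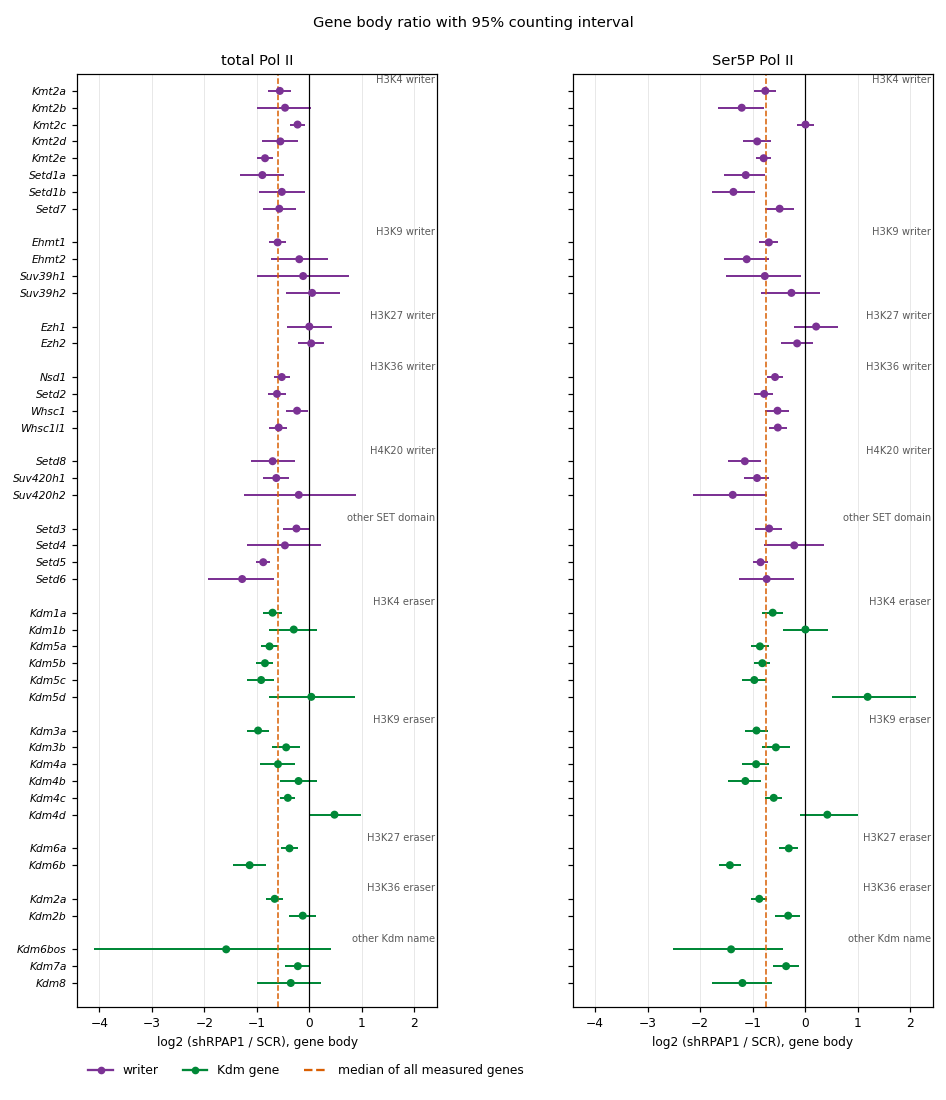
Log2 ratio of gene body signal, shRPAP1 over SCR, of all 44 genes with total Pol II (left) and Ser5P (right); bars are 95% counting intervals from reads, purple marks writers, green marks Kdm genes, and the dashed line is the median of all measured genes (-0.59 and -0.75). Kdm6b lies left of the dashed line with both antibodies, and Ezh1, Ezh2 and Kmt2c lie right of it.

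The H3K9 writers had low to moderate signals. Ehmt1 (GLP), which mono- and dimethylates H3K9, held 37.4 in shRPAP1 and 57.0 in SCR for total Pol II (-0.60, -0.77 to -0.44), and 33.1 in shRPAP1 and 53.6 in SCR with Ser5P (-0.69). Its partner Ehmt2 (G9a) held 34.9 in shRPAP1 and 39.9 in SCR for total Pol II (-0.19, -0.74 to 0.35), and 41.4 in shRPAP1 and 90.0 in SCR with Ser5P (-1.11, -1.55 to -0.69). For Ehmt2 only the Ser5P interval excluded 0. Suv39h2, which trimethylates H3K9 at heterochromatin, held 34.2 in shRPAP1 and 33.0 in SCR for total Pol II (0.05, -0.45 to 0.58) and 26.4 in shRPAP1 and 31.7 in SCR with Ser5P (-0.26, -0.84 to 0.28). Suv39h1, the X-linked copy of this activity, rested on 23 to 48 body reads per library, with Ser5P signals of 20.1 in shRPAP1 and 34.4 in SCR (-0.77, -1.50 to -0.08).

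Of the H3K9 erasers 4 of 6 were measured over the body, with 2 lower in total Pol II and 3 lower in Ser5P. The shares of all measured genes lower were 50.5% and 62.5%. Kdm3a, a JmjC eraser of mono- and dimethylated H3K9 that is induced by low oxygen, held 58.1 in shRPAP1 and 115 in SCR for total Pol II (-0.98, -1.20 to -0.76). With Ser5P Kdm3a held 60.2 in shRPAP1 and 115 in SCR (-0.93, -1.14 to -0.72). Its relative Kdm3b differed less, with 32.7 in shRPAP1 and 44.5 in SCR in total Pol II (-0.44, -0.71 to -0.19). With Ser5P Kdm3b held 30.5 in shRPAP1 and 45.0 in SCR (-0.56, -0.83 to -0.29). The Kdm3a and Kdm3b intervals did not overlap with total Pol II and did with Ser5P.

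The Kdm4 enzymes remove methyl groups from H3K9, and Kdm4a to Kdm4c also from H3K36. Kdm4a held 28.0 in shRPAP1 and 42.6 in SCR for total Pol II (-0.60) and 44.5 in shRPAP1 and 85.3 in SCR with Ser5P (-0.93). Kdm4c held 39.0 in shRPAP1 and 51.9 in SCR for total Pol II (-0.41), and 32.1 in shRPAP1 and 48.8 in SCR with Ser5P (-0.60). Kdm4b, below the threshold, held 15.4 in shRPAP1 and 34.4 in SCR with Ser5P. Kdm4d held 22.0 in shRPAP1 and 15.7 in SCR with total Pol II, both below the threshold.

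All 4 H3K36 writers were measured over the body, with medians of -0.55 with each antibody and 1 lower with each. The shares of all measured genes lower were 50.5% (total Pol II) and 62.5% (Ser5P). Setd2, the enzyme that trimethylates H3K36 and travels with elongating Pol II, held 52.2 in shRPAP1 and 80.2 in SCR for total Pol II (-0.62, -0.79 to -0.45), and 42.8 in shRPAP1 and 73.6 in SCR with Ser5P (-0.78, -0.97 to -0.60). Nsd1, which makes H3K36 dimethylation, held 54.0 in shRPAP1 and 77.8 in SCR for total Pol II (-0.52), and 55.4 in shRPAP1 and 82.6 in SCR with Ser5P (-0.57). Its relatives Whsc1 (NSD2) and Whsc1l1 (NSD3) had log2 ratios of -0.23 and -0.58 with total Pol II, and of -0.53 and -0.52 with Ser5P. The group kept to a narrow range, between -0.23 and -0.78.

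Of the H3K36 erasers, Kdm2a, a CpG-binding JmjC enzyme that removes H3K36 dimethylation, held 64.1 in shRPAP1 and 101 in SCR for total Pol II (-0.66, -0.82 to -0.51) and 61.0 in shRPAP1 and 112 in SCR with Ser5P (-0.87, -1.03 to -0.72). Kdm2b, which recruits a variant Polycomb repressive complex 1 to CpG islands, was not measured over the body, with total Pol II signals of 20.6 in shRPAP1 and 22.5 in SCR.

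The H4K20 writers were lower over the body with Ser5P in 3 of 3 cases, where 62.5% of all measured genes were lower, with a median log2 ratio of -1.15. Setd8, which monomethylates H4K20 in the cell cycle, held 53.5 in shRPAP1 and 119 in SCR with Ser5P (-1.15, -1.47 to -0.84), and 33.9 in shRPAP1 and 55.2 in SCR for total Pol II (-0.70, -1.12 to -0.28). Suv420h1, which adds the further methyl groups, held 40.3 in shRPAP1 and 76.3 in SCR with Ser5P (-0.92), and 42.0 in shRPAP1 and 65.1 in SCR for total Pol II (-0.63). Suv420h2, its short relative, held 33.8 in shRPAP1 and 88.3 in SCR with Ser5P (-1.38, -2.13 to -0.72), from 25 and 66 reads. These 3 Ser5P intervals overlapped one another.

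Of the other SET-domain genes, Setd5, a chromatin protein mutated in a human intellectual disability, had the highest total Pol II body signal of all 44 genes. It held 90.1 in shRPAP1 and 166 in SCR (-0.88, -1.01 to -0.75), and with Ser5P 83.4 in shRPAP1 and 150.5 in SCR (-0.85, -0.99 to -0.71). Setd6, which methylates the NF-kappaB subunit RelA, held 54.6 in shRPAP1 and 133 in SCR for total Pol II (-1.28, -1.93 to -0.67). This was the lowest writer ratio with total Pol II, from 32 and 78 reads over a gene of 5874 bases. With Ser5P Setd6 held 85.3 in shRPAP1 and 142 in SCR (-0.73, -1.27 to -0.21), close to the all-gene median. Setd3, which methylates a histidine of actin, had log2 ratios of -0.25 and -0.68 with total Pol II and Ser5P. Kdm7a, an eraser of dimethylated H3K9 and H3K27, had -0.22 and -0.36, and Kdm8, a JmjC hydroxylase, held 19.7 in shRPAP1 and 45.4 in SCR with Ser5P (-1.19, -1.77 to -0.63).

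Writers and erasers were set against each other in each region. Over gene bodies the median log2 ratio with total Pol II was -0.56 in 21 measured writers and -0.70 in 13 measured erasers, with 8 and 9 lower. These are 38.1% and 69.2%, against 50.5% of all measured genes. With Ser5P the median was -0.76 in 24 writers and -0.87 in 14 erasers, with 16 and 11 lower. These are 66.7% and 78.6%, against 62.5% of all measured genes. At promoters the medians were -1.26 in 20 writers and -1.29 in 16 erasers with total Pol II, and -1.01 in 23 writers and -1.13 in 17 erasers with Ser5P. Writers minus erasers came to 0.14 (total Pol II) and 0.10 (Ser5P) over bodies and to 0.03 and 0.12 at promoters. The sign of 3 of these 4 differences turned under other settings. It became -0.08 over total Pol II bodies without a filter, -0.11 with background subtracted and -0.03 without Kdm6bos at total Pol II promoters, and between -0.19 (no filter) and -0.03 (without Kdm6bos) at Ser5P promoters. These differences are small beside the range within either class, which over bodies with total Pol II ran from -1.28 to 0.05 in writers and from -1.58 to -0.22 in erasers. Genes of 1 pair of libraries are not replicates, and the contrast was not tested.

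**Figure D3:**
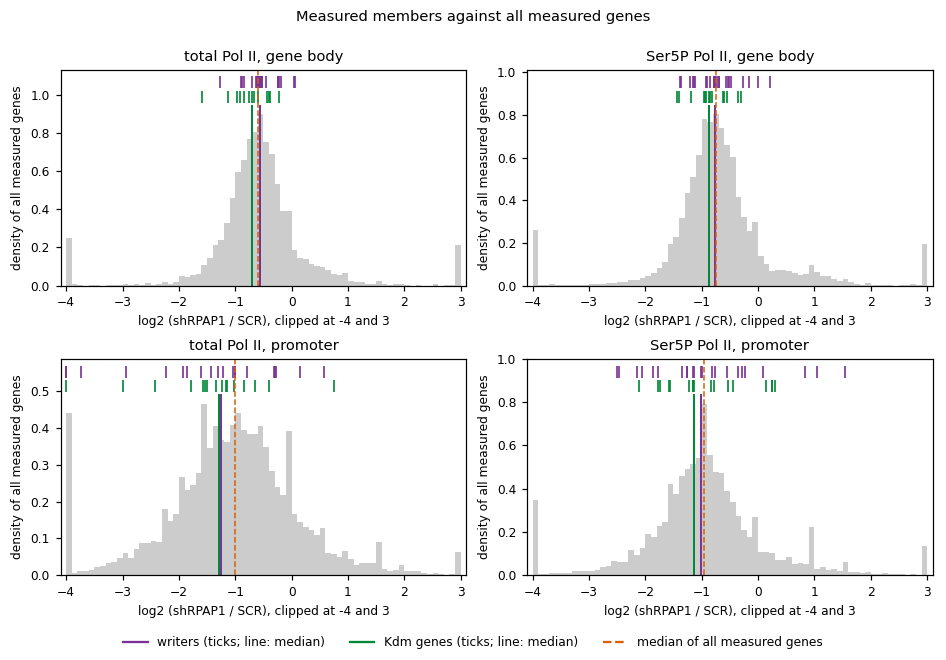
Density of log2 ratios (shRPAP1 over SCR) of all measured genes (grey) for each antibody and region, with ratios past -4 and 3 placed at the edges; ticks are measured writers (purple) and Kdm genes (green), solid lines their medians and the dashed line the median of all measured genes. Over bodies the medians of writers (-0.56 and -0.76) and of Kdm genes (-0.70 and -0.87) lie on either side of the dashed line (-0.59) with total Pol II and just left of it (-0.75) with Ser5P.

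At promoters the signals rested on few reads. Across the 44 genes the median total Pol II promoter signal was 58.4 in shRPAP1 and 171 in SCR, and the median Ser5P promoter signal was 217 in shRPAP1 and 394 in SCR. With total Pol II 36 genes were measured, of which 29 were lower and 1 higher, against 66.9% of 12281 measured genes lower and 6.79% higher. The median of their log2 ratios was -1.26, against -1.01 for all measured genes. It was -1.18 with a floor of 3 shRPAP1 reads at Setd1b, Setd3 and Setd5. At these promoters shRPAP1 reads rounded to 0 and SCR had more than 3. Kdm3b, with 0 reads in shRPAP1 and 3 in SCR, kept its value. With Ser5P 40 were measured, of which 26 were lower and 3 higher, against 70.8% of 15333 measured genes lower and 7.97% higher. The Ser5P median was -1.07, against -0.97 for all measured genes. When the all-gene median was set to 0, the medians of the writers and erasers were -0.26 with total Pol II and -0.11 with Ser5P.

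Kdm5b, whose promoter is printed above, had the highest Ser5P promoter signal in SCR. It held 690.2 in shRPAP1 and 1512 in SCR, from 24 and 52 reads (log2 ratio -1.13, -1.88 to -0.39). Kdm5a held 591 in shRPAP1 and 1310.4 in SCR with Ser5P (-1.15), and Kdm2b held 584 in shRPAP1 and 1303 in SCR (-1.16). The Kdm5c promoter held 174 in shRPAP1 and 751 in SCR with Ser5P (-2.11, -3.69 to -0.80), from 6 and 26 reads. The Kdm5b and Kdm5c intervals overlapped, so their promoter ratios were not distinguishable at this depth.

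Further Ser5P deficits with more than 20 SCR reads were seen in several groups. Whsc1l1 held 180.3 in shRPAP1 and 803 in SCR (-2.15, -3.78 to -0.92), and it was also lower with total Pol II, at 145 in shRPAP1 and 527 in SCR (-1.86, -3.63 to -0.37). Kmt2e held 116 in shRPAP1 and 659 in SCR with Ser5P (-2.50, -4.52 to -0.97). Setd7 held 228 in shRPAP1 and 833 in SCR (-1.87), Kdm6a held 212 in shRPAP1 and 709.7 in SCR (-1.74), and Kdm8 held 297 in shRPAP1 and 875 in SCR (-1.56). The intervals of these 5 genes excluded 0. Of the Ser5P promoter intervals of all 44 genes, 1 lay below the all-gene median (-0.965), that of Kmt2e, with its upper end at -0.974. Above this median lay 2, those of Kdm1b (lower end -0.85) and Suv39h2 (lower end -0.53). Those of Whsc1l1, Setd7, Kdm6a and Kdm8 held this median.

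The H4K20 writers were lower at the promoter with Ser5P in 3 of 3 cases, where 70.8% of all measured genes were lower, with a median log2 ratio of -1.26. Setd8 held 116 in shRPAP1 and 484 in SCR (-2.05, -4.12 to -0.47), Suv420h1 held 236 in shRPAP1 and 566 in SCR (-1.26), and Suv420h2 held 319 in shRPAP1 and 761 in SCR (-1.25). Among the H3K9 erasers, Kdm3a held 751 in shRPAP1 and 1020.5 in SCR with Ser5P (-0.44, -1.22 to 0.34), and Kdm4a held 661 in shRPAP1 and 1133 in SCR (-0.78, -1.57 to 0.02). These 2 promoters were strong, and their intervals held 0. The Kdm6b promoter held 221 in shRPAP1 and 187 in SCR with Ser5P (0.24, -1.30 to 2.22, from 8 and 6 reads). This interval overlapped that of the Kdm6b body (-1.65 to -1.23), so the 2 regions were not distinguishable at this depth.

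Some promoters had little or no total Pol II coverage in shRPAP1 where SCR had several reads. Setd5 was at the lowest value in shRPAP1 and at 378 in SCR, from 0 and 13 reads. Taking 3 reads as a floor in shRPAP1 gives 4.33-fold lower, which leaves out counting error in SCR. Setd1b held 11.5 in shRPAP1, less than the worth of 1 read, and 162 in SCR, about 6 reads. With Ser5P the Setd5 promoter held 307 in shRPAP1 and 674 in SCR (-1.13, -2.25 to 0.03). This interval overlapped that of total Pol II, whose upper end was -1.61, so the 2 antibodies were not distinguishable here. The Setd5 body held 718 total Pol II reads in shRPAP1.

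Kdm5a was the 1 gene counted as higher at the promoter with total Pol II, at 470.2 in shRPAP1 and 278 in SCR (0.76, -0.55 to 1.98, from 16 and 10 reads). Its interval held 0, and its Ser5P promoter and both body values were lower. The start of another coding gene, Ccdc77, lies 250 bases away on the opposite strand, and its reads were not separated from those of Kdm5a. Such an opposite start within 500 bases was found at 4 of the 44 genes, the others being Ehmt2, Kdm4d and Setd3.

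With Ser5P the 3 genes counted as higher at the promoter were Kmt2d (128 in shRPAP1 and 61.3 in SCR), Suv39h2 (333 in shRPAP1 and 187 in SCR) and Setd3 (87.3 in shRPAP1 and 29.6 in SCR). They rested on 1 to 12 reads per library, and each interval held 0. At Ezh1 and Ezh2 the promoter intervals held 0. Ezh2 held 204 in shRPAP1 and 252 in SCR for total Pol II (-0.30, -2.02 to 1.23) and 256 in shRPAP1 and 374 in SCR with Ser5P (-0.54). Ezh1 held 145 in shRPAP1 and 131 in SCR for total Pol II (0.15) and 183 in shRPAP1 and 172 in SCR with Ser5P (0.09). With 5 to 13 reads each, the median ratios of the writers and erasers also lay within these intervals.

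Setd4 had a strong promoter and a weak body. Its Ser5P promoter signal was 952 in shRPAP1 and 1211 in SCR (-0.35), the highest of the 44 genes in shRPAP1, while its Ser5P body signal was 23.0 in shRPAP1 and 26.6 in SCR. Nsd1 and Kdm4c showed the opposite, with 0 or 1 promoter reads and a promoter signal below the body signal in each library. Whsc1, with 0 to 2 promoter reads, was mixed. Its promoter signal was above its body signal with total Pol II in SCR (58.4 and 47.6) and with Ser5P in shRPAP1 (58.4 and 32.1). It was below in the other libraries. With so few reads in the promoter window, these contrasts are coarse.

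**Figure D4:**
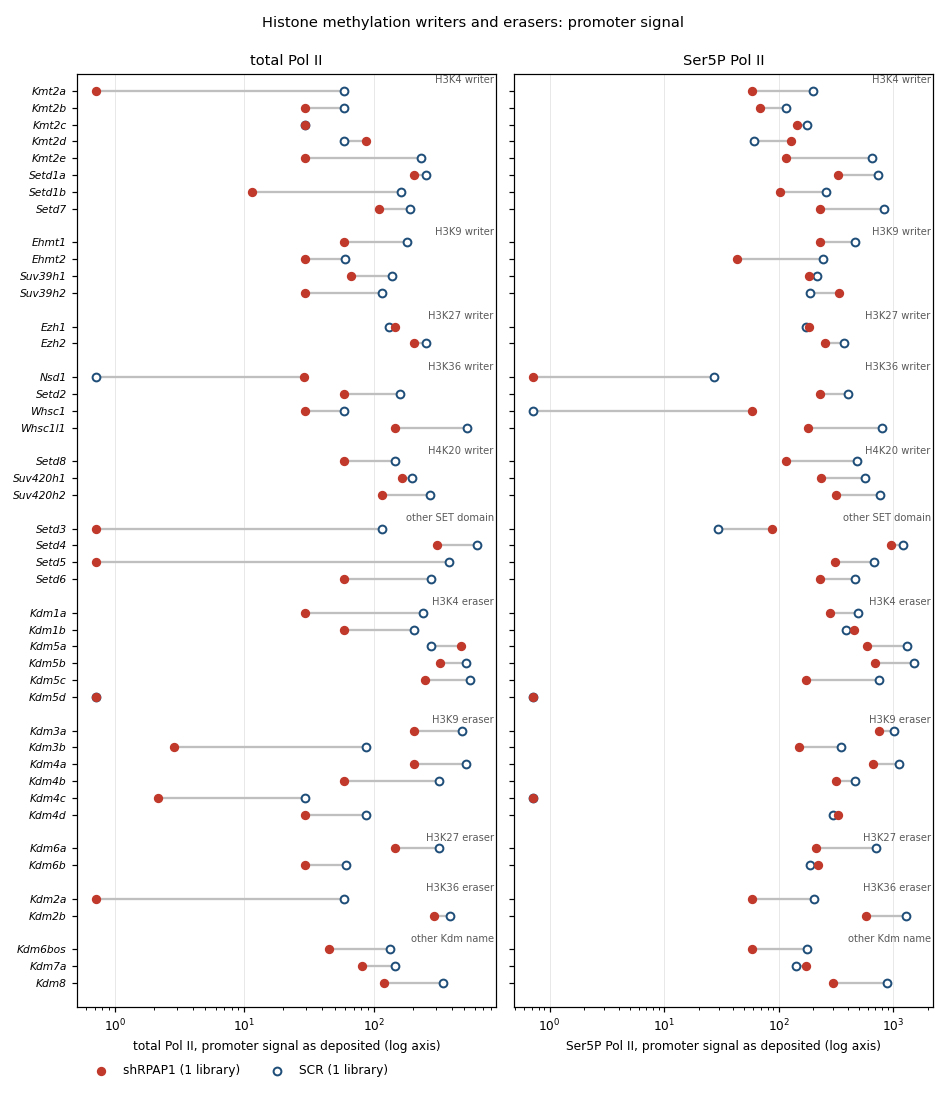
Promoter signal as deposited (log axis) of all 44 genes with total Pol II (left) and Ser5P (right); filled red points are the shRPAP1 library and open blue points the SCR library, and the lowest value, 0.72, means no coverage. In Ser5P the SCR points of Kdm5b (1512), Kdm5a (1310.4), Kdm2b (1303) and Setd4 (1211) are the highest, and Setd5 in the left panel is at 0.72 in shRPAP1 and at 378 in SCR.

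The difference between the libraries with total Pol II was larger at promoters than over bodies. In the 27 genes measured in both regions with total Pol II, the body to promoter ratio in shRPAP1 was above that in SCR in 20, with a median log2 change of 0.75. Over 7719 genes the median was 0.41, and 66.7% were above 0. With Ser5P it was above in 24 of 35 genes, with a median of 0.28, against 0.21 and 60.5% over 11328 genes. This Ser5P median was 0.08 with background genes set equal and 0.05 with background subtracted, while that of total Pol II was 0.75 and 0.50. The ratio of Ser5P to total Pol II over bodies was above 0 in 11 of 34 genes, with a median log2 change of -0.15, against -0.14 over 9820 genes, of which 35.4% were above 0. At promoters 20 of 36 were above 0, with a median of 0.52, against 0.04 over 11681 genes, of which 51.4% were above 0.

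Genes with more Pol II in SCR had lower body ratios with total Pol II. So that the level was not part of the ratio itself, it was taken from the SCR library of the other antibody. In the 34 measured genes the total Pol II body ratio and the Ser5P SCR level had a Spearman rho of -0.86, against -0.49 over 10508 genes. In the other direction, the Ser5P body ratio and the total Pol II SCR level had a rho of -0.17 in 38 genes, against -0.34 over 14060 genes. At promoters the 2 values were 0.17 in 36 genes and -0.23 in 40 genes, against -0.14 and -0.13 over all measured genes. The points share their libraries, the pooled chromatin and the gene length, and those of Kdm6b and Kdm6bos share reads. With the background signal subtracted, the body values for writers and erasers were -0.71 (total Pol II) and 0.08 (Ser5P), the second with its sign turned. Over all measured genes they were then -0.34 and -0.16. Ezh2, Suv39h2 and Kmt2c lay at the low end of the Ser5P level (29.1, 31.7 and 26.6 in SCR), and Kdm6b (305) at the high end.

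**Figure D5:**
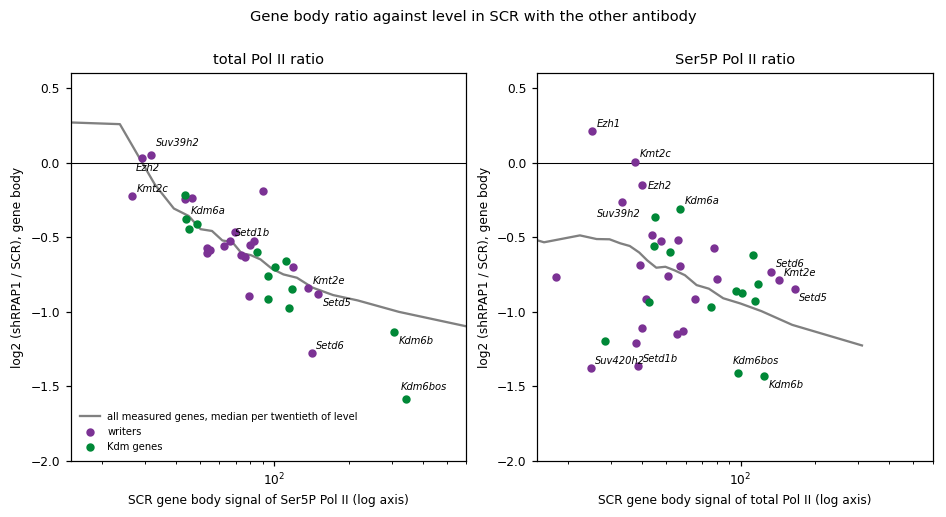
Gene body log2 ratio (shRPAP1 over SCR) against the SCR gene body signal of the other antibody (log axis), for measured writers (purple) and Kdm genes (green), with total Pol II on the left and Ser5P on the right; the grey line joins the medians of all measured genes per twentieth of the level. In the left panel the points follow the descending line from Ezh2 (0.04) to Kdm6b (-1.14), and in the right panel they scatter widely around it.

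The 44 genes were long, with a median of 48595 bases (writers 45506, erasers 52255), against 14952 bases for all measured Ser5P bodies with a known length. With total Pol II the 44 bodies together held about 11288 reads in shRPAP1 and 16731 in SCR, while the 44 promoters held about 149 reads in shRPAP1 and 325 in SCR. Body ratios of these genes therefore rest on far more reads than promoter ratios.

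Genes that work with these enzymes had body ratios in the same range, on lists drawn up from textbook knowledge. Their counts stand beside 50.5% of all measured genes lower with total Pol II and 62.5% with Ser5P. Of 8 partners of Polycomb repressive complex 2, 4 of 6 measured were lower with total Pol II and 5 of 7 with Ser5P, with medians of -0.65 and -0.73. Eed, which binds trimethylated H3K27, held 50.9 in shRPAP1 and 83.0 in SCR for total Pol II (-0.70). Suz12, the scaffold of the complex, held 46.5 in shRPAP1 and 63.1 in SCR (-0.44). Mtf2, which recruits the complex to DNA, held 43.8 in shRPAP1 and 44.6 in SCR with Ser5P (-0.03), a value near those of Ezh1 and Ezh2.

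Of 10 partners of the H3K4 writers, 2 of 5 measured were lower with total Pol II (median -0.47) and 7 of 10 with Ser5P (median -0.79). Wdr5, a shared core subunit, held 28.0 in shRPAP1 and 58.2 in SCR with Ser5P (-1.05), and Wdr82, which ties the Setd1 complexes to Ser5P Pol II, held 47.4 in shRPAP1 and 87.6 in SCR (-0.88). Of 5 genes of the LSD1 complex, 3 were lower with total Pol II and 4 with Ser5P, Hdac1, a histone deacetylase, having -0.70 and -0.78. Of 6 H3K9 readers and partners, 2 of 5 measured were lower with total Pol II and 4 of 6 with Ser5P. Trim28, the corepressor that recruits an H3K9 writer, held 75.4 in shRPAP1 and 178 in SCR with Ser5P (-1.23).

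Of 12 further lysine methyltransferases outside the name rule, 4 of 5 measured were lower with total Pol II and 5 of 10 with Ser5P. Dot1l, the H3K79 writer, held 38.4 in shRPAP1 and 82.9 in SCR with Ser5P (-1.11). Of 6 further demethylase-family genes, 0 of 4 measured were lower with total Pol II and 1 of 4 with Ser5P, where Mina held 22.6 in shRPAP1 and 50.1 in SCR (-1.14). No gene of these 6 lists that was measured over the body was counted as higher, against 6.55% of all measured genes with total Pol II and 7.75% with Ser5P.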

How the data were processed

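Total Pol II and Ser5P ChIP-seq of pooled fibroblast chromatin was analysed, 1 library for each antibody and hairpin. The series has 17 samples. The 12 RNA-seq samples (6 of fibroblasts, 6 of embryonic stem cells) and the input have no values in the table used and are not analysed here, so the planned RNA comparison was not made. As deposited, each value is a signal, taken here as base coverage, for promoter or gene body per the file headers. The submitters' processing notes name MACS2 2.0.10.20130712, bedtools 2.23.0, SAMtools 0.1.16, FastQC and the build GRCm38 (mm10). Not given in the sources used here are the aligner, promoter window, input correction and depth scaling. Of the promoter values, 99.97% were whole multiples of 0.721 within 0.02 of a step, most often 1, 41 and 81 steps, as reads of 40 bases over an assumed window of 330 bases would give. Read numbers are derived from this and are approximate, and PCR copies were not separated. Body read numbers also assume a body that starts 300 bases into the gene and use the annotated gene length. Kdm6b, for example, has 21860 bases in RefSeq and 15168 in GENCODE, so its body reads and intervals depend on the annotation.

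Dropping 58 exact repeats from 36230 rows left 36172 genes. Values were used as deposited, with pseudocounts at the 5th percentile. The filter was the mean of an antibody's 2 libraries above the mean of their 95th percentiles over 1760 receptor genes (Olfr, Vmn1r and Vmn2r names). Gene lengths came from RefSeq for 43 of the 44 genes and from GENCODE for Kdm6bos. The analysis used Python 3.11.15, pandas 2.3.3, numpy 2.4.6 and scipy 1.17.1. Promoter ratios and their intervals were tested on simulated data for well-covered genes. Gene body values, the filter and the contrasts were not tested in this way. With 1 library per group, no p-value is given. Every gene matching the name rule could be named. The genes and the lists were chosen with earlier results of these data known. Alternatives were other scalings, background subtraction, pseudocounts, filters, a fold of 2, and, chosen after seeing the data, Kdm6bos left out and the relation to level with background subtracted.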

Additional observations from a re-analysis of the deposited data

How the results depend on the processing

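No paired analysis was possible because each ChIP group is 1 library, and the RNA samples that share replicate numbers have no values here. Over 20 results and 108 alternatives, 81 values stayed within an interval from the spread over genes or within 1.5 times the count, 26 did not, and 1 median changed sign. Among the 81, writers minus erasers turned sign at total promoters (-0.11 with background subtracted, -0.03 without Kdm6bos), over total bodies (-0.08, no filter) and at Ser5P promoters (-0.19 without a filter, -0.09 with a filter on the other antibody, -0.03 without Kdm6bos). Scaling moved most. With the all-gene median set to 0, the medians became -0.26 (total promoter), 0.00087 (total body, the change of sign), -0.11 (Ser5P promoter) and -0.031 (Ser5P body). The numbers lower were then 12, 2, 11 and 4, and the numbers higher 7, 2, 11 and 3. Equalizing the background genes gave medians of -2.06, -1.40, -1.66 and -1.58. Then 34 genes were lower in total body, and 0 and 1 were higher at total and Ser5P promoters. With background subtracted, the medians were -1.62 (total promoter), -0.99 (total body) and -1.05 (Ser5P body). With a filter at 2 times the threshold, total body kept 12 genes, 11 of them lower, with a median of -0.84. At a fold of 2, 3 genes were lower in total body, 9 in Ser5P body, and 0 were higher at total promoters. Apart from what scaling does by construction, the cause was not tested. Depth limits the promoters, where most genes had under 20 reads per library.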

Other observations

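Kdm5d and its Y-linked neighbour in the list of further demethylases, Uty, had body signals at background level in all libraries. The Ser5P body signal of Kdm5d was 10.1 in shRPAP1 and 4.22 in SCR, and that of Uty was 11.2 in shRPAP1 and 5.70 in SCR. The background genes averaged 10.0 in shRPAP1 and 5.75 in SCR with this antibody, so both Y-linked genes lay close to them in each library.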
